A study of Rattus norvegicus with 25 samples.

Results

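The 7 GABA-A receptor subunit genes Gabra2, Gabra3, Gabra4, Gabra5, Gabrb1, Gabrb2 and Gabrd were taken by name from the expression tables of 2 brain regions of the rat. Each name matched 1 gene model in each region, so the set held 7 of the 26312 genes listed per table. The animals were adult male WT Sprague-Dawley rats. Stress-exposed animals were immobilized for 3 h in the presence of fox urine, a predator scent, and controls were left in their home cages with little disturbance apart from a change of cage. All animals, controls included, were handled and went through the behavioral tests before tissue was taken. Tissue was punched from the left basolateral amygdala (BLA) and the left dorsal dentate gyrus (DG) on day 9 after stress, and poly-A RNA was sequenced. Among the stress-exposed animals, a stress-low group had low and a stress-high group high composite scores of anxiety-like behavior, and the controls had scores from across their range.

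There were 25 libraries, 13 from the BLA (7 control, 3 stress-low, 3 stress-high) and 12 from the DG (6, 3 and 3), with 11656439 to 22801247 expected counts each. In each region 1 control library stood apart on the first principal component of log2(TPM + 1), at a distance of 49.8 from the median in the BLA (animal 2) and 61.5 in the DG (animal 35), against at most 15.9 for any other library. Both were left out, which left 6 BLA controls and 5 DG controls. For the hippocampal control sample that the study itself left out, it reports low RNA quality and a repeat extraction, without naming the animal. The labels of animal 35 contradicted each other in the BLA (control in the library name, stress in the treatment field), and the library was kept as a control. A library is a punch sample of 1 animal that mixes all cell types of the region, so that fewer cells of a type and less RNA per cell cannot be told apart. The summed TPM of 6 granule cell markers was 455 to 746 in the DG and 110 to 174 in the BLA, although Tdo2, one of them, was under 1 TPM on average in both. The summed TPM of 5 BLA principal neuron markers was lower in the BLA (1140 to 1640) than in the DG (1830 to 2320). This is the reverse of what the list is named for, so the sum did not mark the BLA punches. Values of its single genes are not given here.

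GABA-A receptors are chloride channels built from several subunits around a pore, and GABA opens them to quiet the cell. Most hold alpha and beta subunits together with a gamma or a delta subunit, and the choice of alpha subunit sets where the receptor sits and which drugs it binds. Receptors with alpha-2 are known at synapses and at the axon initial segment. Those with alpha-5, or with alpha-4 together with delta, are known outside synapses, where they answer to ambient GABA, and the delta subunit is known for its high level in dentate granule cells and its sensitivity to neurosteroids.

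The genes lie in clusters of the family. In the RefSeq annotation of GRCr8, Gabrb1, Gabra4, Gabra2 and Gabrg1 neighbour each other in that order, Gabra5 lies next to Gabrg3, Gabrb2 follows Gabra6, and Gabra3 lies between Gabre and Gabrq. No other family gene was found within 10 genes of Gabrd. Promoter sequences, 250 bases before to 50 after the gene start in the RefSeq table for GRCr8, were found for 6 of the 7 genes, Gabra2 being the gene without an entry. Those of Gabra3 and Gabrd, the genes with the largest differences between the BLA and the DG and in opposite directions, are shown 5′ to 3′ on the strand of the gene. Capitals mark the GC box letters GGGCGG and the TATA box letters TATAAA, each searched on both strands, overlapping matches included. Gabra3 is at chrX:155543821-155544120 and Gabrd at chr5:171252660-171252959, both on the minus strand.
Gabra3: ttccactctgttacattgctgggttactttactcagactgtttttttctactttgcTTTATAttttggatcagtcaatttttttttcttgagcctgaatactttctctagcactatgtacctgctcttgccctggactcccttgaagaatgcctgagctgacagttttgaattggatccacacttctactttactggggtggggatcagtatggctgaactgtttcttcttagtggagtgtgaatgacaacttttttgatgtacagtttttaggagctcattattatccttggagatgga
Gabrd: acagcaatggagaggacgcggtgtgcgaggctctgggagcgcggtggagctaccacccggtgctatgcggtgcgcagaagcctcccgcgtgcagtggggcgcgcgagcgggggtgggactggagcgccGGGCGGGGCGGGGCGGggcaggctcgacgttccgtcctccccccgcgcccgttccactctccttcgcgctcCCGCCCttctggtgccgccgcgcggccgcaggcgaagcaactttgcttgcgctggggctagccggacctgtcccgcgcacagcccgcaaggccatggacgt

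The Gabra3 promoter held 39.3% G and C, 0 CpG dinucleotides, 0 GC boxes and 1 TATA box match. The Gabrd promoter held 73.7% G and C, 40 CpG dinucleotides and 4 GC box matches. Over all 33469 promoters of this length in the table, the medians were 51.7% G and C and 7 CpG dinucleotides, 33.1% held a GC box match and 14.2% a TATA box match. The promoters of Gabra4 and Gabra5 were rich in G and C too (70.7% and 76.3%, with 35 and 42 CpG dinucleotides and 1 GC box match each), whereas those of Gabrb1 and Gabrb2 held 49.3% and 44.0% with 11 and 9 CpG dinucleotides. None of the 6 held the cAMP response element letters TGACGTCA or the glucocorticoid half-site letters AGAACA on either strand, which 1.83% and 20.7% of all promoters held. A CCAAT box match was present in Gabra3 and Gabrb1 and in 37.5% of all promoters. Such a match describes the letters of the window and does not show that a factor binds.

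To compare genes within a region, levels were read in TPM, the estimated share of a gene in all transcripts, corrected for gene length and brought to the same total in every library. Together the 7 genes held 524.7 ± 39.9 TPM in the BLA (SD, n = 12 libraries) and 562.5 ± 43.46 in the DG (SD, n = 11), which was 52.12% and 51.44% of the TPM of all 19 subunit genes examined. In both regions Gabra2, the alpha-2 subunit, had the highest level of the set, at 185.9 ± 23.33 TPM in the BLA and 175.8 ± 22.51 TPM in the DG. The ranks below it differed between the regions. The order of genes rests on the lengths of their models, for example 1398 bases for Gabra2 and 2604 for Gabra5. In expected counts, which are not corrected for length, Gabra5 (2647 on average) was above Gabra2 (2085) in the DG. In the BLA it was below (1635 against 2703). The tests of the order measure the spread over libraries and cannot detect an error in length that all libraries share.

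In the BLA, Gabra3, the alpha-3 subunit, came next at 86.18 ± 7.174 TPM. Gabrb2 (beta-2) at 66.63 ± 9.184 TPM and Gabra4 (alpha-4) at 64.11 ± 3.524 TPM followed and did not differ beyond their spread (exact two-sided sign-flip permutation test on log2 TPM, p = 0.412, Gabrb2 higher in 6 of 12 libraries). Below them stood Gabra5 (alpha-5) at 59.13 ± 3.701 TPM, which Gabra4 exceeded in 10 of 12 libraries (exact permutation p = 0.00439, adjusted over the 6 neighbouring pairs 0.00527), Gabrb1 (beta-1) at 43.2 ± 4.451 TPM and Gabrd, the delta subunit, at 19.55 ± 1.793 TPM. The other neighbours in this order differed in the same direction in 12 of 12 libraries, at the smallest p that this exact permutation test can give, 0.000488 (adjusted 0.000732).

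In the DG the second place went to Gabra4 at 115.8 ± 10.79 TPM and Gabra5 at 108.3 ± 9.491 TPM, which did not differ beyond their spread (exact permutation p = 0.104, Gabra4 higher in 8 of 11 libraries). Gabrd stood at 67.08 ± 7.989 TPM, Gabrb2 at 51.35 ± 4.572 TPM, Gabrb1 at 29.66 ± 3.726 TPM and Gabra3 last at 14.46 ± 2.516 TPM. Each of these steps, and that from Gabra2 to Gabra4, had the same direction in 11 of 11 libraries (exact permutation p = 0.000977, the smallest possible, adjusted 0.00117). All 7 genes were well covered by reads. The lowest were Gabra3 in the DG, with 163 to 287 expected counts per library, and Gabrd in the BLA, with 295 to 517.

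To ask how the subunit makeup differs between the regions of 1 brain, the 9 animals with a kept library of both were compared (4 control, 2 stress-low and 3 stress-high). Gabra3, Gabrb1 and Gabrb2 were higher in the BLA and Gabra4, Gabra5 and Gabrd were higher in the DG, in 9 of 9 animals each. Gabra2 differed less, and its call depended on the scale. The spread of the region difference over animals was small beside the difference itself for Gabra3, Gabra4, Gabra5 and Gabrd.

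Gabra3 was at 87.01 ± 8.06 TPM in the BLA of these animals (SD, n = 9) and 14.12 TPM in the DG. Its level in the BLA was 5.05 to 7.63 times that in the DG of the same animal, and the ranges, 75.7 to 101.3 TPM over all kept BLA libraries and 11.28 to 19.79 TPM over all kept DG libraries, were far apart. Gabrd was at 18.9 ± 1.291 TPM in the BLA and 68.3 TPM in the DG, 2.9 to 4.48 times higher in the DG. Its ranges over all kept libraries, 16.5 to 22.85 and 57.16 to 85.35 TPM, did not overlap either.

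Gabra4 and Gabra5 differed by similar ratios. Gabra4 was 1.68 to 2.17 times higher in the DG (63.55 against 115.2 TPM on average), and Gabra5 was 1.63 to 2.09 times higher (59.55 against 107.3 TPM). Neither gene overlapped between the regions in any kept library, with Gabra4 at 57.83 to 71.15 TPM in the BLA and 100.3 to 135.9 TPM in the DG, and Gabra5 at 53.16 to 63.64 and 95.15 to 126.2 TPM. How many of all genes had ranges apart in this way, as these genes, Gabra3 and Gabrd did, was not counted. Most genes tested differed between the regions, as given below.

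The beta subunits were higher in the BLA, by 1.13 to 1.78 times for Gabrb1 (43.91 against 29.66 TPM) and by 1.0 to 1.43 times for Gabrb2 (64.81 against 50.52 TPM). Gabrb2 in control animal 17 was nearly level, with 49.09 TPM in the BLA and 48.98 TPM in the DG. Gabra2 was at 190.6 TPM in the BLA and 175.1 TPM in the DG, higher in the BLA in 5 animals and higher in the DG in 4, a difference within its spread (exact two-sided sign-flip permutation test, p = 0.0742). For the other 6 genes the exact permutation test gave p = 0.00391, the smallest it allows with 9 animals (0.00456 after Benjamini-Hochberg adjustment over the 7 genes).

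**Figure D1:**
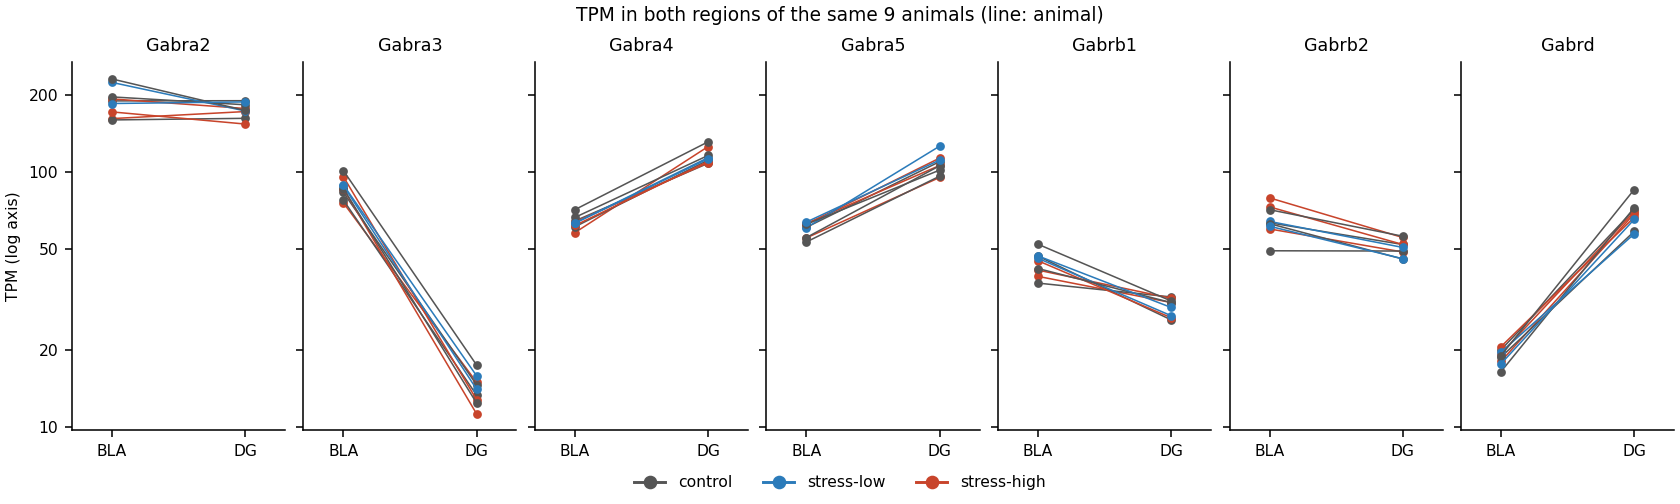
TPM (log axis) of each subunit gene in the BLA and the DG of the same 9 animals, 1 line per animal, colored by group. Gabra3 drops from 87.01 TPM on average to 14.12 TPM and Gabrd climbs from 18.9 to 68.3 TPM in every animal, while the lines of Gabra2 cross.

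The fit to the counts, with the animal as a term, placed the same genes apart. Of 14396 genes tested with edgeR's quasi-likelihood test and Benjamini-Hochberg adjustment, 37.7% were higher in the DG and 40.8% higher in the BLA at an adjusted p under 0.05, so that most genes of the table differed between the regions. Against that background, 3 of the 7 subunit genes were higher in the DG and 4 were higher in the BLA. On this count scale the log2 difference of DG over BLA was -2.80 for Gabra3 (SE 0.058, edgeR adjusted p = 8.95e-16) and 1.68 for Gabrd (SE 0.054, edgeR adjusted p = 1.32e-13). It was 0.74 for Gabra5 (SE 0.041) and 0.69 for Gabra4 (SE 0.035), and -0.72 for Gabrb1 (SE 0.058), -0.58 for Gabrb2 (SE 0.046) and -0.35 for Gabra2 (SE 0.047, edgeR adjusted p = 4.55e-06). The median over the 7 genes was -0.35 and the median over all genes tested was -0.02.

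The fitted difference of Gabra2 was the one of the 7 that lost its call under another scale. With limma on log2(TPM + 1) it was -0.11 (adjusted p = 0.0971), or -0.23 relative to the median of all genes, which that scale moved to 0.12. On the TPM scale 7284 genes were called higher in the DG and 4653 higher in the BLA, against 5423 and 5879 on the count scale. The other 6 genes kept their direction and call in all 18 alternatives. In the 4 control animals alone the values were close to those of all animals, with Gabra3 at -2.77 (SE 0.086), Gabrd at 1.75 (SE 0.091) and Gabra2 at -0.37 (SE 0.077). The median length minus effective length of a gene model was 50 bases in the BLA libraries and 261 to 274 bases in the DG libraries, so the libraries of the regions were sequenced or modelled in different ways, and region and sequencing cannot be told apart. With effective length as an offset, the difference of Gabra2 was -0.29 (edgeR adjusted p = 2.84e-05).

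Several cell type markers moved with the region as well. The summed TPM of 6 oligodendrocyte markers was 2280 to 4170 in the BLA and 1480 to 2020 in the DG, that of 5 astrocyte markers 633 to 783 and 837 to 1300, that of 7 striatal and central amygdala markers 267 to 880 and 152 to 210, and that of 6 microglia markers 170 to 246 and 120 to 158. The sum of 8 interneuron markers overlapped (758 to 1070 and 821 to 1130). Of CA pyramidal markers the sums were 208 to 313 and 163 to 244, with FIBCD1 at 0 in both regions. Endothelial markers summed to 52.6 to 79.4 and 40.8 to 65.2 TPM, leptomeningeal markers to 9.51 to 17.3 and 2.99 to 11.5 TPM, and choroid plexus markers to at most 0.75 TPM, with Ttr at 0 in the BLA. The part of these cell types in the subunit differences was not tested.

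Because a change in the total would move all subunits together, the share of each gene in the summed TPM of the 7 was compared next. All 7 shares differed between the regions in the same direction in 9 of 9 animals, including that of Gabra2. The share of Gabra3 was 16.47% ± 0.4865 in the BLA (SD, n = 9) and 2.516% in the DG, a difference of -13.95 percentage points. Gabrd was 8.584 points higher in the DG (3.598% against 12.18%), Gabra4 8.499 points (12.06% against 20.56%) and Gabra5 7.839 points (11.32% against 19.16%). The differences of DG minus BLA were -4.718 points for Gabra2 (35.98% against 31.26%), -3.237 points for Gabrb2 and -3.016 points for Gabrb1. Each had an exact two-sided permutation p of 0.00391, the smallest possible with 9 animals (0.00391 after adjustment over the 7 genes). Shares of 1 total are not independent of each other, since a larger share of 1 gene leaves less for the rest.

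**Figure D2:**
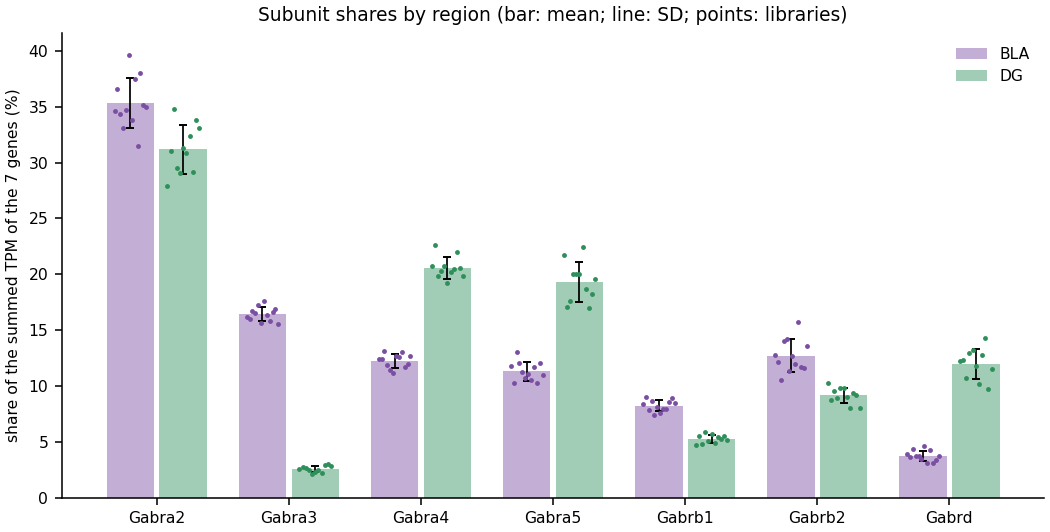
Share (%) of each gene in the summed TPM of the 7 subunit genes in the BLA and the DG (bars: mean, lines: SD, points: kept libraries). Gabra3 falls from second rank in the BLA to a mean of 2.56% in the DG, where Gabra4 (20.58%), Gabra5 (19.31%) and Gabrd (11.96%) take larger shares than in the BLA.

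The rest of the family was examined for the same comparison. Of 12 other subunit genes, 6 passed the filter on low counts, of which 3 were higher in the DG and 3 higher in the BLA at an adjusted p under 0.05 (edgeR). Gabrg3 (gamma-3), a neighbour of Gabra5 in the genome, was lower in the DG by a log2 difference of -2.56 (SE 0.098) with 13.73 TPM in the BLA and 2.811 TPM in the DG. Gabrg1 (gamma-1), next to Gabra2, was at -1.38 (SE 0.062), with 63.64 and 27.41 TPM. Gabrr2, a rho subunit, was at 1.71 (SE 0.288) but at no more than 1.56 TPM in any kept library. Gabra6, Gabre, Gabrp, Gabrq, Gabrr1 and Gabrr3 averaged under 1 TPM in both regions.

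Genes that place or move the receptor in the cell were examined next. Of 19 gene models for 18 listed genes, 10 were higher in the DG and 6 higher in the BLA. Among those with the largest differences, Shisa7, an accessory protein of the receptor, was at 0.77 (SE 0.039) and Slitrk3, an adhesion protein of inhibitory synapses, at 0.74 (SE 0.033), both higher in the DG. Igsf9b, another adhesion protein of inhibitory synapses, was at -1.75 (SE 0.088) and Hap1, a trafficking adaptor, at -1.28 (SE 0.067), both higher in the BLA. Dmd (dystrophin) was at -1.78 (SE 0.097) in 1 of 2 gene models of that name, and its value is uncertain because reads could be split between them. The median over the list was 0.11.

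Of 8 genes for GABA synthesis, transport and breakdown, 2 were higher in the DG and 6 higher in the BLA, with a median of -0.23. Slc6a13, a GABA transporter, was at -0.97 (SE 0.183), Abat, the GABA transaminase, at -0.44 (SE 0.036), Gad1 at -0.36 (SE 0.06) and Gad2 at -0.26, the last 2 being the GABA-synthesizing enzymes. Aldh5a1, which acts after Abat, was at 0.22. Of 4 tested genes of the GABA-B receptor, 3 were higher in the DG, among them Gabbr1 at 0.16 (SE 0.029) and Gabbr2 at 0.11 (SE 0.033), and Kctd16 at 0.20 (SE 0.079), while Kctd8, an auxiliary subunit, was at -2.15 (SE 0.17). The median was 0.14.

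Of 4 chloride transport models, 2 were higher and 2 lower in the DG, with a median of -0.20. Slc12a5 (KCC2), the neuronal chloride exporter, was at 0.15 (SE 0.041), whereas Slc12a2 (NKCC1), a chloride importer, was at -0.56 (SE 0.052) and Clcn2, a chloride channel, at -0.59 (SE 0.04). Of 7 neurosteroid and endozepine genes 4 were tested, 0 were higher in the DG and 2 were higher in the BLA, namely Dbi, the diazepam binding inhibitor, at -1.55 (SE 0.053) and Srd5a1, a steroid 5-alpha-reductase, at -0.35 (SE 0.063).

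To ask whether the subunits differ between control, stress-low and stress-high animals, each pair of groups was compared in each region. In the BLA no subunit gene passed the test between groups. Of the 15230 genes tested, 0.0% were under an adjusted p of 0.05 in any of the 3 comparisons (edgeR quasi-likelihood test), and the same held for the 7 subunit genes. At an unadjusted p under 0.05 the share of all genes was 2.75% between control and stress-low, 2.57% between control and stress-high and 1.98% between stress-low and stress-high, and 0 of the 7 subunit genes were among them. DESeq2 called 2, 3 and 1 genes in these comparisons and limma on log2(TPM + 0.1) called 2, 0 and 1, none of them a subunit gene. The fitted log2 fold changes of the 7 lay between -0.10 (Gabra2, control to stress-high) and 0.15 (Gabrb2, the same comparison).

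In the BLA Gabrb2 gave the highest of these values. Its level was 49.09 to 71.13 TPM in the controls, namely 63.22, 49.09, 62.77, 62.71, 71.13 and 70.61 TPM. It was 64.0, 82.84 and 61.27 TPM in the stress-low animals and 59.79, 72.97 and 79.15 TPM in the stress-high animals. All groups overlapped, and the log2 fold change from control to stress-high was 0.15 (95% interval -0.06 to 0.37, edgeR adjusted p = 1.0). Over 20 alternatives it was 0.10 to 0.31, with an unadjusted p of 0.0235 to 0.365 and an adjusted p of 0.961 to 1.0 by edgeR, DESeq2 or limma. The highest value, and the highest of 0.29 against 0.06 between the stress groups, came with animal number above 20 as a covariate. The number splits the stress groups completely, since every stress-high animal (7, 19 and 20) is numbered 20 or lower and every stress-low animal 22 or higher, so this fit takes the effect of number from the controls alone. The highest value was that of stress-low animal 30, where the summed TPM of striatal and central amygdala markers was 854 against a median of 396 over the BLA libraries, and control animal 35, with 880, had a Gabrb2 level of 70.61 TPM. The part of these markers was not tested. The share of Gabrb2 among the 7 genes was 12.1% in controls and 13.69% in stress-high animals (exact permutation p = 0.0595, 0.957 after adjustment over 42 tests).

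The ranges of the remaining subunit genes of the BLA overlapped between all groups. Gabra2 was at 188.0 ± 25.4 TPM in controls (SD, n = 6), 191.8 ± 30.04 in stress-low and 175.7 ± 16.08 in stress-high animals (n = 3 each). Gabra3 was at 85.98, 86.87 and 85.89 TPM and Gabra4 at 65.24, 64.88 and 61.07 TPM in that order of groups. Gabra5 was at 57.29, 61.83 and 60.1 TPM, and its exact permutation p between control and stress-low was 0.0952 (smallest possible 0.0119, 0.933 after adjustment over 42 tests). Gabrb1 was at 43.12, 44.87 and 41.69 TPM and Gabrd at 19.46, 19.88 and 19.4 TPM. The 95% intervals of the log2 fold changes, each for 1 gene and not adjusted for the number of intervals, were for example -0.17 to 0.15 for Gabrd between control and stress-low. For Gabra2 in that comparison the interval was -0.26 to 0.24.

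**Figure D3:**
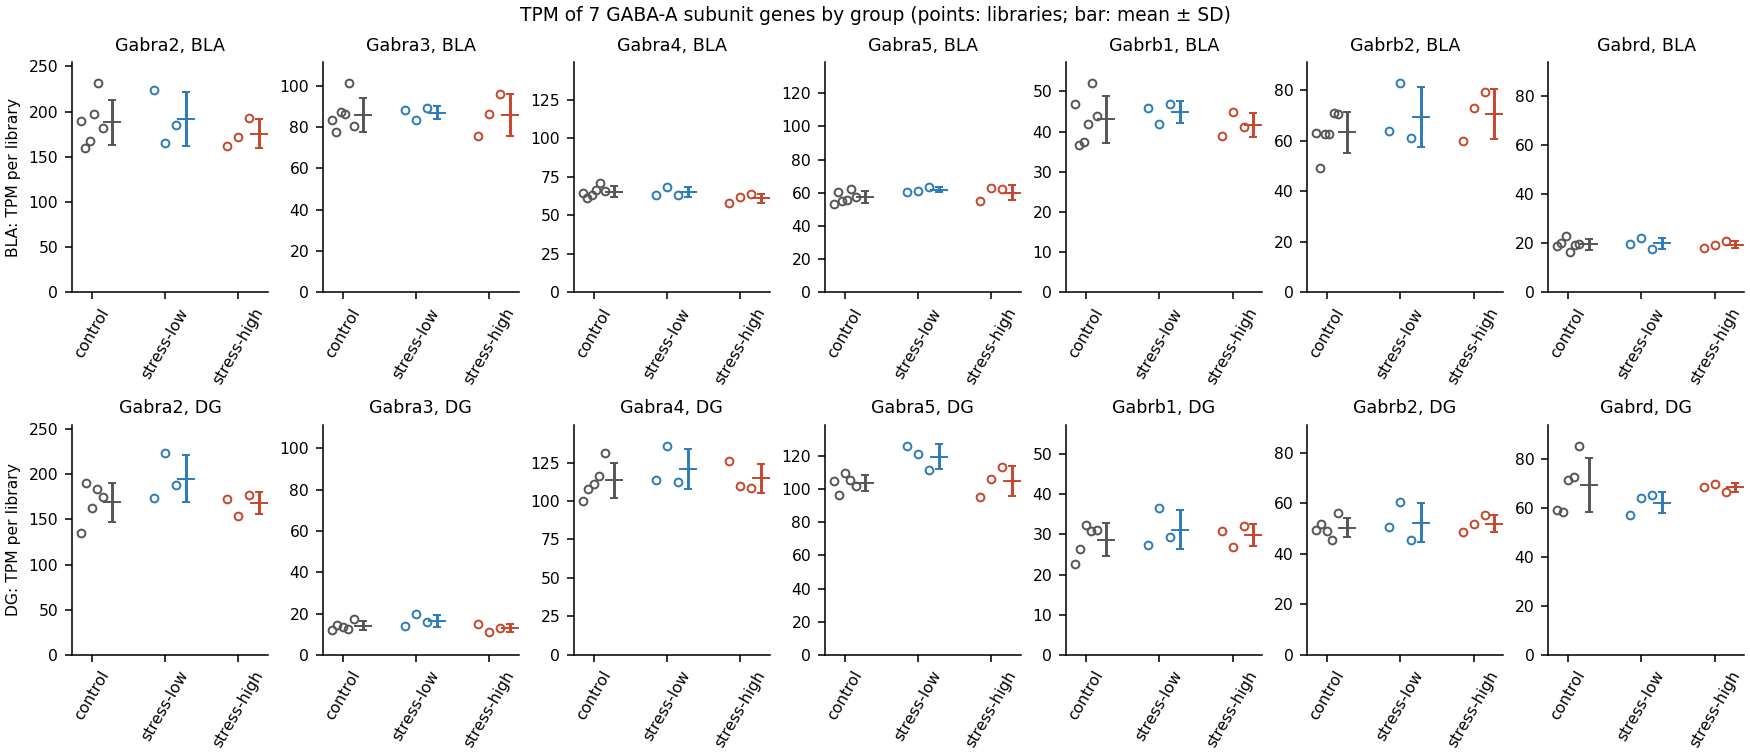
TPM of each subunit gene in each kept library of the BLA (upper row) and the DG (lower row), by group (points: libraries, bars: mean ± SD, axes from 0 with the same limit for a gene in both regions). In the DG the 3 stress-low libraries of Gabra5 (111.35 to 126.19 TPM) lie above the 5 controls (96.24 to 109.75 TPM), and apart from Gabrd between the stress groups of the DG, the groups overlap for all other genes.

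In the DG the same comparisons gave 0.0% of 14080 genes under an adjusted p of 0.05, subunit genes included. The shares of all genes at an unadjusted p under 0.05 were 6.9% between control and stress-low, 2.19% between control and stress-high and 3.12% between stress-low and stress-high. Of the 7 subunit genes 1, Gabra5, was among them in the first and in the third comparison, and 0 were in the second. DESeq2 called 4, 1 and 4 genes in these comparisons and limma on log2(TPM + 0.1) called 0, none of them a subunit gene.

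The values of Gabra5 in the DG were 105.05, 96.24, 109.75, 105.74 and 101.67 TPM in the controls. They were 126.19, 120.92 and 111.35 TPM in the stress-low animals and 95.15, 106.01 and 113.33 TPM in the stress-high animals. Every stress-low library was above every control, while the stress-high libraries overlapped with both groups. How many of all genes separated control and stress-low in this way was not counted. Of all genes tested, 6.9% were under an unadjusted p of 0.05 in this comparison (edgeR). The log2 fold change from control to stress-low was 0.22 (SE 0.059, 95% interval 0.10 to 0.35), with an unadjusted p of 0.00216 and an adjusted p of 0.718 in edgeR's quasi-likelihood test. Over 18 alternatives it was 0.17 to 0.27 with an adjusted p of 0.269 to 1.0. On TPM the exact permutation p was 0.0179, the smallest that 5 against 3 libraries can give, and 0.752 after adjustment over 42 tests. From stress-low to stress-high the log2 fold change was -0.19 (SE 0.066, 95% interval -0.33 to -0.04, edgeR unadjusted p = 0.0141, adjusted p = 1.0). The share of Gabra5 among the 7 genes was 19.01% in controls and 20.1% in stress-low animals, a difference of 1.093 points within the spread (exact permutation p = 0.464).

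Other values of the stress-low group of the DG overlapped with those of the controls. Its libraries held 11656439 to 15547038 expected counts against 13487835 to 19135223 in the DG controls, the sum of interneuron markers was 901 to 972 against 969 to 1130 TPM, and that of granule cell markers 455 to 537 against 467 to 746 TPM. In stress-high animals these sums were 821 to 1080 and 489 to 611 TPM. The sums of CA pyramidal, oligodendrocyte and astrocyte markers also overlapped between the 3 groups (169 to 244, 1860 to 2010 and 837 to 1050 TPM in stress-low animals, 180 to 241, 1480 to 2020 and 838 to 1300 TPM in controls). Stress-high libraries of the DG held 16201792 to 19477932 expected counts, so every one was deeper than every stress-low library. The part of depth and of these cell types in the levels of Gabra5 and Gabrd was not tested.

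Gabrd, which forms receptors with alpha-4 in granule cells, had lower values in stress-low than in stress-high animals in the DG and did not pass the test. It was at 59.12, 58.48, 71.19, 72.43 and 85.35 TPM in controls, 57.16, 64.08 and 65.18 TPM in stress-low animals and 68.63, 69.86 and 66.42 TPM in stress-high animals. The stress-low and stress-high libraries did not overlap, and the controls spanned both. The share of all genes that separated the stress groups was not counted. The exact permutation p of that pair was 0.1, the smallest that 3 against 3 libraries can give (0.933 after adjustment over 42 tests). The fitted log2 fold change from stress-low to stress-high was 0.15 (95% interval -0.09 to 0.38, edgeR adjusted p = 1.0), and 0.09 (without stress-low animal 22) to 0.18 (without stress-high animal 20) when 1 library was left out. With animal number above 20 as a covariate, again an adjustment that rests on the controls alone, it was 0.45 (SE 0.124, edgeR unadjusted p = 0.00339, adjusted p = 0.747), and from control to stress-low it was -0.32 (SE 0.092, edgeR unadjusted p = 0.00472, adjusted p = 0.722) in place of -0.14. Its share was 10.44% in stress-low, 12.42% in stress-high and 12.6% in control animals (exact permutation p = 0.1 and, against controls, 0.0714, each 0.957 after adjustment over 42 tests).

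Gabra3, the lowest of the set in the DG, had the largest fitted value there, from stress-low to stress-high. It was at 12.25, 14.66, 13.36, 12.44 and 17.52 TPM in controls, 14.09, 19.79 and 15.9 TPM in stress-low animals and 15.0, 11.28 and 12.82 TPM in stress-high animals, and all groups overlapped. The log2 fold change was -0.34 (95% interval -0.69 to 0.00, edgeR unadjusted p = 0.0509, adjusted p = 1.0). It was -0.20 without stress-low animal 33, the highest library, and -0.47 without stress-high animal 7. Gabra2 was at 169.0 ± 21.82 TPM in controls (SD, n = 5), 195.1 ± 25.77 in stress-low and 168.0 ± 12.23 in stress-high animals (n = 3 each), and its log2 fold change from control to stress-low was 0.21 (95% interval -0.02 to 0.45, edgeR adjusted p = 0.74), against 0.11 without stress-low animal 33 and 0.14 without control animal 2. Gabra4 was at 113.4, 120.8 and 114.7 TPM, Gabrb1 at 28.67, 31.12 and 29.86 TPM and Gabrb2 at 50.39, 52.33 and 51.96 TPM in control, stress-low and stress-high animals. None of these 3 genes passed the test in any of the 3 comparisons.

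In the DG, 6 of 7 fold changes from control to stress-low were above 0, with a median of 0.13 against -0.003 over all genes tested. From stress-low to stress-high 1 of 7 was above 0, with a median of -0.07. These comparisons share the stress-low libraries, so their opposite signs are not separate observations. Between control and stress-high, 6 of 7 were above 0 with a median of 0.04. In the BLA the medians were -0.01, -0.01 and -0.001 for control to stress-low, control to stress-high and stress-low to stress-high.

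**Figure D4:**
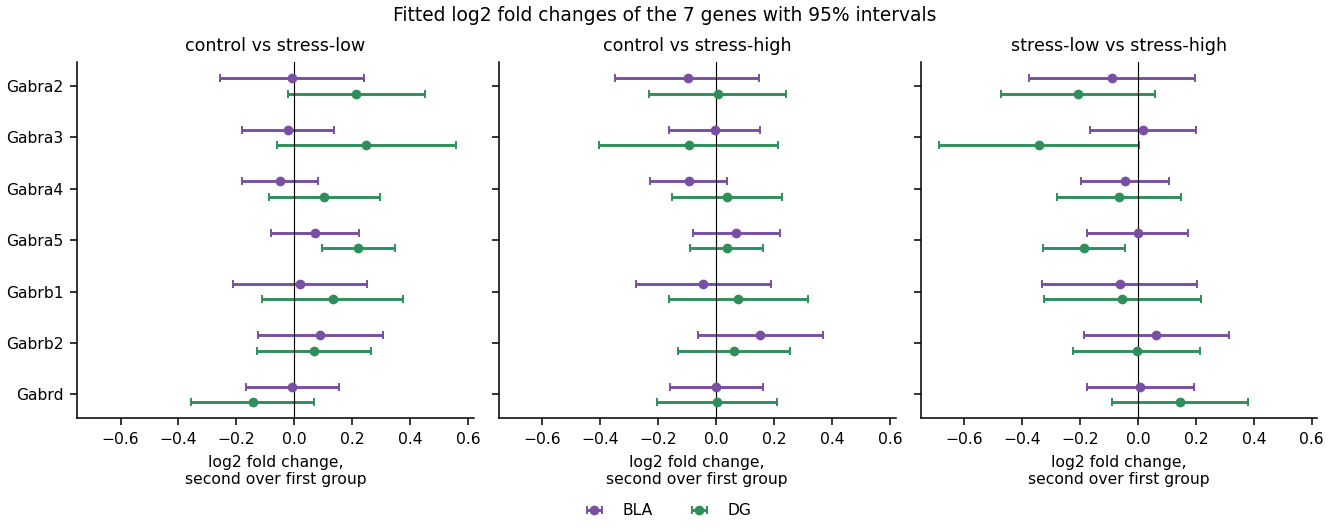
Fitted log2 fold changes (points) with 95% intervals (lines) of the 7 subunit genes between groups in the BLA and the DG, second over first group. The intervals of Gabra5 in the DG exclude 0 in the first panel (0.10 to 0.35) and in the third panel (-0.33 to -0.04), before adjustment, and all other intervals include 0.

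Whether a group difference itself differed between the BLA and the DG was tested with an interaction term over 15453 genes. Under an adjusted p of 0.05, 0.0% of genes were called in each of the 3 interactions (edgeR), and at an unadjusted p under 0.05 the shares were 3.21% for control against stress-low, 1.84% for control against stress-high and 2.0% for stress-low against stress-high. DESeq2 called 3, 3 and 1 genes. None of the 7 subunit genes was among them in either tool. The nearest was Gabra3 between stress-low and stress-high, with a BLA minus DG difference of 0.35 in log2 fold change (95% interval -0.02 to 0.71, unadjusted p = 0.0624, edgeR adjusted p = 1.0). For Gabra5 the BLA minus DG difference of the control to stress-low fold change was -0.14 (95% interval -0.33 to 0.06, edgeR adjusted p = 1.0). These fits had no term for the animal, although 9 animals gave a library of both regions. With the animal as a term in those 9 animals, of which 2 were stress-low, the difference was -0.12 for Gabra5 (SE 0.109, edgeR adjusted p = 1.0) and 0.14 for Gabra3 (SE 0.166, edgeR adjusted p = 1.0), and 0 of the 7 genes passed the test or had an unadjusted p under 0.05. The higher values of Gabra5 in the DG of stress-low animals were thus not shown, in either fit, to be particular to the DG.

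The other GABA genes listed above did not pass the test between groups either, with 0 called by edgeR in any of the 9 comparisons and interactions. The listed gene with the lowest unadjusted p in edgeR was Gabre (log2 fold change 0.87, unadjusted p of 0.0194) between control and stress-low, Gad2 (0.41, unadjusted p of 0.0319) between control and stress-high and Trak1, a trafficking adaptor (0.13, unadjusted p of 0.0424), between the stress groups in the BLA, all with an adjusted p of 1.0 by edgeR. In the DG these were Rdx (radixin, which anchors alpha-5 receptors to the cytoskeleton) at 0.16 (unadjusted p of 0.0225, edgeR adjusted p = 0.718), Dmd at -0.16 (unadjusted p of 0.0868) and Rdx at -0.19 (unadjusted p of 0.0163), the last 2 with an edgeR adjusted p of 1.0. For the interactions they were Gabrr2 (1.72, unadjusted p of 0.00696), Trak1 (0.14, unadjusted p of 0.0342) and Rdx (0.20, unadjusted p of 0.0434), each with an edgeR adjusted p of 1.0.

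As a description of which genes varied most like each subunit over libraries, the highest Pearson correlations of log2(TPM + 1) were taken over the 12 kept BLA libraries (11156 genes) and the 11 kept DG libraries (10911 genes). In the BLA the nearest genes were Ryr2 (r = 0.918) and Slc4a10 (0.915) for Gabra2, Usp46 (0.948) and Wdr26 (0.946) for Gabra3, Cggbp1 (0.933) and Dimt1 (0.921) for Gabra4 and Pamr1 (0.854) and Tmem150b (0.836) for Gabra5. They were PHF6 (0.902) and Chrm2 (0.863) for Gabrb1, Ppp2r5c (0.967) and Selt (0.946) for Gabrb2, and Abcf3 (0.976) and Pianp (0.964) for Gabrd. In the DG they were GGNBP2 (0.969) and Tmsbl1 (0.964) for Gabra2, Nus1 (0.953) and Impad1 (0.943) for Gabra3, Prpf18 (0.948) and Stxbp6 (0.944) for Gabra4 and Parn (0.903) and Crygd (0.898) for Gabra5. Atrn (0.938) was near Gabrb1, and the nearest were for Gabrb2 Cnih1 (0.919) and Prmt3 (0.889), and for Gabrd Sppl2b (0.915) and Car12 (0.914). No gene stood on the list of the same subunit in both regions. The libraries share their depth, tissue composition and RNA quality, and the highest of so many correlations over so few libraries is high by selection.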

How the data were processed

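Poly-A RNA from 25 tissue punch samples was sequenced. Per the labels and the study's methods, the authors used STAR 2.6.0a for alignment to the Rn5 genome and RSEM 1.3.1 with an Ensembl annotation for quantification. They tested groups with EBSeq, whose results are not used here. The deposited tables give, per gene and library, an expected count (RSEM's estimate of reads, not whole), TPM and FPKM values (FPKM not used) and lengths, with no filter on low values. Each library is 1 animal, so p-values measure the spread between animals.

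The deposited expected counts were rounded to whole numbers. In each region, edgeR 4.0.16 (R 4.3.3) was run with TMM scaling, with genes kept by filterByExpr (minimum count 10), and with a quasi-likelihood model of all 3 groups. P-values were adjusted by Benjamini-Hochberg over all genes tested at a threshold of 0.05. The DG and BLA of 9 animals were compared with the animal as a term, since both libraries came from the same animal. Deviations from the region mean had an r of 0.114 to 0.178 between the 2 libraries of an animal. No such r was computed between different animals, so these values have no comparison. Interactions used 6 region and group means without an animal term, and with one in the 9 paired animals as an alternative. TPM and shares were tested by exact two-sided permutation. The control library farthest from the median on PC1 was left out per region, as the study left out 1 per region by PCA. Every subunit gene was named. Of the other lists, up to 5 called genes per list with the largest fold change were named, or the gene with the smallest p where 0 were called, and the 2 genes with the highest r per subunit and region (mean TPM of at least 5). The members and lists were chosen with earlier results of these data known. Some genes that this rule names are not reported here. Promoters came from RefSeq (GRCr8).

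Alternatives were DESeq2 1.42.0, limma 3.58.1 on log2(TPM + 1) and log2(TPM + 0.1) with a mean TPM of at least 0.5 or no filter, RLE size factors, no filter on counts, only 2 groups, all mapped libraries, a replicate block, animal number above 20 as a covariate, control animals only, other denominators of shares and leaving out each library. The animal term for interactions, effective length as an offset, the BLA without animals 30 and 35, and all mapped libraries for TPM, share and order tests were added after seeing the data. The tests were tried on simulated data.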

Additional observations from a re-analysis of the deposited data

Results flagged for a closer look

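The share of Gabra5 among the 7 genes was 13.05% in BLA control animal 17, apart from the other 5 controls at 10.24% to 11.1%. It was 1 of 28 sets of values tested in groups of 5 or 6 controls for a library far from the rest, and chance marks about 1 in 20. Among the kept BLA controls, that library had the lowest levels of Gabra2 (159.94 TPM), Gabra3 (77.63), Gabra4 (60.95), Gabrb1 (36.67) and Gabrb2 (49.09). Its Gabra5 level of 60.69 TPM was inside their range.

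The BLA control library of animal 2, left out because it stood apart on PC1, held 74.17 TPM of Gabrb2 and 23.69 TPM of Gabrd, both above the highest kept BLA control (71.13 and 22.85 TPM). Its striatal and central amygdala markers summed to 1705 TPM, against 267 to 880 TPM in the kept BLA libraries. Its CA pyramidal markers summed to 460.6 TPM (208 to 313 in kept libraries) and its leptomeningeal markers to 72.97 TPM (9.51 to 17.3). The part of this tissue content in its subunit levels was not tested. The part of this library in any group difference was covered by keeping all mapped libraries, where 0 subunit genes passed the test between groups.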

How the results depend on the processing

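DESeq2 called 2, 3 and 1 genes in the BLA (control to stress-low, control to stress-high, stress-low to stress-high), 4, 1 and 4 in the DG and 3, 3 and 1 in the interactions, against 0 with edgeR. Limma on log2(TPM + 1) without a filter called 5 and 5 genes in the last 2 BLA comparisons and 1 and 1 in the last 2 DG comparisons. Limma on log2(TPM + 0.1) called 2 from control to stress-low and 1 between the stress groups in the BLA. From control to stress-high in the BLA, 1 gene was called with only those 2 groups and 1 without animals 30 and 35. Leaving out 1 library gave 0 to 1 calls there and between the BLA stress groups (1 without stress-high animal 20). None was a subunit gene: 0 settings brought any of the 7 under an adjusted p of 0.05 between groups. The cause was not tested.

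The replicate numbers in the sample titles did not pair libraries within a region (r of deviations -0.0761 to 0.0626 in the BLA and -0.212 to 0.0853 in the DG for libraries sharing a number). With a replicate block 0 genes were called in any group comparison, as without it, and Gabra5 from control to stress-low in the DG was 0.235 (adjusted p = 0.829). Under the block the sign turned for Gabra5 between the BLA stress groups (0.001) and Gabra2 from control to stress-high in the DG (-0.010). Without the animal term 11131 genes differed between the regions.

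All region differences of the 7 genes kept their direction. Those of 6 genes kept their call, and that of Gabra2 lost it in limma (-0.114, adjusted p = 0.0971 and 0.102). Leaving out 1 animal gave 11055 to 11366 genes. Shares by region kept direction in each alternative, with smaller values over all subunits.

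Group fold changes near 0 turned sign 40 times and kept it 401 times over these alternatives, none past the threshold. From control to stress-high in the BLA, Gabra3 was 0.056 with all mapped libraries, 0.076 with the number covariate and 0.003 with no filter. From control to stress-low in the BLA, Gabra2 was 0.035 with all mapped libraries, 0.028 in limma and 0.115 without animals 30 and 35, Gabra3 was 0.041, 0.019 and 0.030, and Gabrd was 0.002 with the covariate and 0.031 and 0.029 in limma. Between the BLA stress groups, the covariate gave Gabra2 0.042, Gabra4 0.023 and Gabrd -0.019, limma gave Gabra3 -0.022 and Gabrd -0.031 and -0.030, no filter gave Gabra5 0.001, and leaving out animals 30 and 35 gave Gabra3 -0.050. In the DG from control to stress-high, Gabrd was -0.091 with all mapped libraries and -0.007 in limma, and Gabra2 was -0.001 in limma. In the DG the covariate gave Gabra4 -0.004 from control to stress-low, and Gabra4 0.119 and Gabrb1 0.110 between the stress groups. In the interactions all mapped libraries gave Gabrb2 -0.079 and Gabrd 0.083 for control to stress-high and Gabrb2 -0.132 for control to stress-low. With the animal as a term in the 9 paired animals, 1 gene was called in the control to stress-high interaction and 0 in the others, and the sign turned for Gabrd (0.088) for control to stress-high, Gabra2 (0.030) and Gabrb1 (0.131) for control to stress-low, and Gabra2 (-0.124) and Gabra4 (-0.074) between the stress groups, all with an adjusted p of 1.0.

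Leaving out 1 library, the fold changes that turned sign ranged as follows. From control to stress-high in the BLA they were -0.023 to 0.034 for Gabra3, -0.112 to 0.029 for Gabrb1 and -0.025 to 0.037 for Gabrd. From control to stress-low in the BLA they were -0.144 to 0.121 for Gabra2, -0.072 to 0.045 for Gabra3, -0.045 to 0.105 for Gabrb1, -0.015 to 0.143 for Gabrb2 and -0.056 to 0.041 for Gabrd. Between the BLA stress groups they were -0.221 to 0.045 for Gabra2, -0.05 to 0.067 for Gabra3, -0.047 to 0.052 for Gabra5, -0.15 to 0.01 for Gabrb1 and -0.041 to 0.057 for Gabrd. In the DG from control to stress-high they were -0.067 to 0.074 for Gabra2, -0.049 to 0.094 for Gabra4, -0.003 to 0.085 for Gabra5 and -0.05 to 0.08 for Gabrd. In the DG from control to stress-low they were -0.001 to 0.215 for Gabrb1 and -0.05 to 0.156 for Gabrb2, and between the DG stress groups -0.154 to 0.022 for Gabra4, -0.141 to 0.075 for Gabrb1 and -0.096 to 0.109 for Gabrb2.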

Other observations

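The DG control library left out, that of animal 35, had lower levels than every kept DG library for Gabra2 (91.06 TPM), Gabra3 (7.91 TPM), Gabra4 (66.8 TPM), Gabra5 (90.45 TPM), Gabrb1 (13.99 TPM) and Gabrb2 (14.52 TPM). Its Gabrd level of 80.88 TPM was inside the range of the kept DG controls, 58.48 to 85.35 TPM. The hippocampal control sample that the study excluded had been flagged for low RNA quality and extracted again. The repeat extract had a passing RNA integrity number but stood apart in PCA. The study proposes that the RNA was harmed or contaminated, and its text does not name the animal. The part of RNA quality in the lower levels of the library of animal 35 was not tested.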
